A study of Mus musculus with 12 samples.

Results

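Mitochondrial ribosomal proteins are the genes named Mrpl, for the large subunit, and Mrps, for the small subunit, followed by digits and at most 1 letter. That rule, applied to the symbols of the 55487 genes counted in this series, gave 78 members, 49 of the large and 29 of the small subunit, all annotated as protein coding and spread over 17 chromosomes. The 5 genes of the family with a pseudogene suffix, which held 0 to 132 reads each over all libraries, were left out. By structure, Mrps18a and Mrps30 belong to the large subunit and Mrps36 is a subunit of the 2-oxoglutarate dehydrogenase complex, so both readings of the family are given where they differ.

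The libraries came from primary mouse embryonic fibroblasts taken at E13.5, all of the genotype HTT-floxed (HTTfl/fl), so that the controls carry the floxed alleles too. HTT-deleted cells received the lentivirus LV-Cre-GFP, which encodes Cre recombinase, and control cells the lentivirus H2B-eGFP, with 7 days between transduction and harvest in both. From each suspension 1 part in 15 gave total RNA and the remainder a ribosome pellet, which makes 4 groups of 3 libraries: total RNA of control cells, total RNA of HTT-deleted cells, and ribosome-associated RNA of either. A replicate is a separate primary culture or a separate passage, so p-values measure the spread between such cultures, which may in part be passages of 1 culture. Cre came from the virus and not from the genome, and no sort of transduced cells is given in the sources used here.

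The mammalian mitochondrial ribosome makes the few membrane subunits of the respiratory chain that mitochondrial DNA encodes. Its RNAs come from mitochondrial DNA, but all of its proteins are encoded in the nucleus, translated on cytosolic ribosomes and imported. The proteins fall into homologues of bacterial ribosomal proteins and proteins found only in mitochondrial ribosomes.

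Gene counts per library ran from 16789356 to 30571501, of which the members took 0.180% to 0.337%, or 32954 to 72482 reads. The cells carried fibroblast markers in every group, with a summed level of 27984 to 53362 CPM over 11 markers, where CPM are a gene's reads scaled to library size. Markers of macrophages were present as well, summed over 16 genes at 780 to 3172 CPM in control total RNA and 1785 to 7373 CPM in HTT-deleted total RNA. Htt itself was at 56.4 ± 9.64 CPM in control and 12.3 ± 2.81 CPM in HTT-deleted total RNA (SD, n = 3 each), and at 24.9 ± 6.26 and 7.28 ± 4.82 CPM in ribosome-associated RNA (SD, n = 3 each), without overlap of the groups in either fraction. The log2 fold changes were -2.16 ± 0.24 and -1.78 ± 0.47 (SE). Neither passed the Benjamini-Hochberg adjustment over all genes in edgeR's quasi-likelihood test, and the smaller adjusted p was 0.812 in total RNA.

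The promoter stretches below are shown because motifs near the start sites were more frequent among the members than among other genes. Each is the 120 bases before the start site in RefSeq (GRCm38.p6), 5′ to 3′ on the gene's strand, with matches to the searched motifs in capitals. Mrpl30 and Mrpl42 were the members most raised on ribosomes and hold none of the motifs in these 120 bases. Mrpl42 has a match at position 27, inside the transcript and past the printed stretch. Mrpl33 and Mrps27 were among the lowest, and the others carry the motifs singly or together. A further match in Mrpl33, at position -3, crosses the end of the printed stretch and is not in capitals. Members not printed differ. Of the 5 most raised, Mrpl18 and Mrpl48 hold a match, at positions -240 and -34, and Mrpl20 holds none. Of the 5 lowest, Mrpl37 holds a match at position 26 and Mrps5 holds none. These genes were chosen after their values were seen, and no relation of motifs to fold changes was tested.

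Mrpl30 (chr1:37890357-37890476, plus strand): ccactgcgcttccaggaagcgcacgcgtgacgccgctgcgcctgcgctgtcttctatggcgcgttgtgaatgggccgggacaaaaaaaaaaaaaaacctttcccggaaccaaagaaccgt
Mrpl42 (chr10:95501950-95502069, minus strand): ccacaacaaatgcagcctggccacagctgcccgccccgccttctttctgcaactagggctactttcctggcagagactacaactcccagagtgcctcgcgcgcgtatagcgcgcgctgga
Mrpl33 (chr5:31613831-31613950, plus strand): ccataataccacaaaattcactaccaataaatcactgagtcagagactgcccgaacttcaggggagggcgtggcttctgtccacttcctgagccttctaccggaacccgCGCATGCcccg
Mrps27 (chr13:99344666-99344785, plus strand): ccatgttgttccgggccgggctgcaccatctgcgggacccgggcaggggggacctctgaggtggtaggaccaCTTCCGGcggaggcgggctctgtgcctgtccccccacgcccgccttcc
Mrps18a (chr17:46110884-46111003, plus strand): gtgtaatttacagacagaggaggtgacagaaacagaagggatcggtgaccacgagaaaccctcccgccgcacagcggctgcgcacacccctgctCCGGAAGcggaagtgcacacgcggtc
Mrps11 (chr7:78783011-78783130, plus strand): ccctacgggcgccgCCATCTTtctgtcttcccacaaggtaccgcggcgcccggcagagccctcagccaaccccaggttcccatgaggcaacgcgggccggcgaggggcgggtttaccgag
Mrpl22 (chr11:58171544-58171663, plus strand): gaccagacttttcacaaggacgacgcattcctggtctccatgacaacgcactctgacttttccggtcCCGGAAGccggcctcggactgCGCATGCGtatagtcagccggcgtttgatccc
Mrpl52 (chr14:54426789-54426908, plus strand): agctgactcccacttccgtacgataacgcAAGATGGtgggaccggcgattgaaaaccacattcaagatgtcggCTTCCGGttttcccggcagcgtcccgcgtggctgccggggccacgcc

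The searched letters were CCGGAAG (the core bound by ETS factors), GCATGCG (part of the site of nuclear respiratory factor 1, a regulator of nuclear genes for mitochondria) and AAGATGG (part of the site of YY1), on either strand of the 300 bases from 250 before to 50 after the start, at any start the table lists for a gene. RefSeq promoters were matched for 69 of the 78 members. CCGGAAG was found in 26 of the 69 members (37.7%), against 18.8% of 11137 tested genes and 9.93% of all 27025 promoters in the table. AAGATGG was in 13 members (18.8%), against 8.00% and 7.28%, and GCATGCG in 8 (11.6%), against 6.80% and 4.01%. In all, 38 members (55.1%) held at least 1 of the motifs, compared with 29.8% of tested genes. No member had overlapping CCGGAAG and AAGATGG matches.

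The positions of the matches were spread over the window. The median position of 31 CCGGAAG matches was 17 bases before the start (position -17, quartiles -54 and 1.5). For 19 GCATGCG matches it was -32 (quartiles -123.5 and -22.5), and for 15 AAGATGG matches it was 14, inside the transcript (quartiles -98.5 and 24.5). CCGGAAG was in 11 of 26 small-subunit promoters (42.3%) and in 15 of 43 large-subunit promoters (34.9%). The 3 paralogues Mrps18a, Mrps18b and Mrps18c all held it, at positions -26, 43 and -156 from the start. A match describes letters in this window and no binding.

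Members also often shared a start region with another gene. A protein-coding gene on the other strand began within 1000 bp upstream (or up to 200 bp inside) of 23 of 77 members (29.9%), against 11.4% of 13529 protein-coding genes tested. Some of these partners work in mitochondria too: Mrps12 is paired with Sars2, the mitochondrial seryl-tRNA synthetase, Mrpl36 with Ndufs6, a subunit of respiratory complex I, and Mrps27 with Ptcd2, a mitochondrial RNA-binding protein.

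Of the 78 members 77 were expressed at a testable level and 1, Mrpl53 (chr6:83109040-83109939, plus strand), was listed at 0 in all 12 libraries. A count of 0 allows up to 3 reads, which is 0.0981 to 0.179 CPM depending on the library and covers counting error only. Of the Mrpl53 exons 88.0% are shared on the same strand with the gene Gm42688, which itself had 259 reads in all libraries together. What this overlap does to the Mrpl53 count was not tested. The exons of 8 members overlap a gene on the same strand and those of 28 members a gene on the opposite strand. Over 25% of the exon length is shared in 2 and 6 of these. Mrps34 shares 37.0% of its exons with Nme3, which was also listed at 0.

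Levels of different genes were compared as CPM per kilobase of exon, in total RNA of control cells. They spanned from 1.06 ± 0.0457 for Mrps10 to 43.5 ± 3.10 for Mrps21 (SD, n = 3), with a median of 8.78 over the 77 members. The large-subunit median was 10.4 and the small-subunit median 8.31. Below Mrps21, a homologue of a bacterial small-subunit protein, came Mrpl34 at 32.1 ± 6.76, Mrpl10 at 27.5 ± 1.77 and Mrpl24 at 25.2 ± 1.21 CPM per kilobase (SD, n = 3). At the low end, Mrpl48 was at 2.46 ± 0.243, Mrps35 at 2.04 ± 0.296 and Mrpl33 at 1.49 ± 0.115 CPM per kilobase (SD, n = 3). The order is gradual: in 68 of the 76 neighbouring pairs the ranges of the 3 libraries overlapped. With the longest transcript as the length in place of all exons, the median was 12.03. The low members Mrps10, Mrpl33, Mrps35 and Mrpl48 have exon lengths of 7326 to 8631 bp and longest transcripts of 2741 to 4607 bp. Mrps21 and Mrpl34 have exon lengths of 739 and 607 bp, and the median member has 2394 bp. How far the order rests on the length used was not tested.

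**Figure D1:**
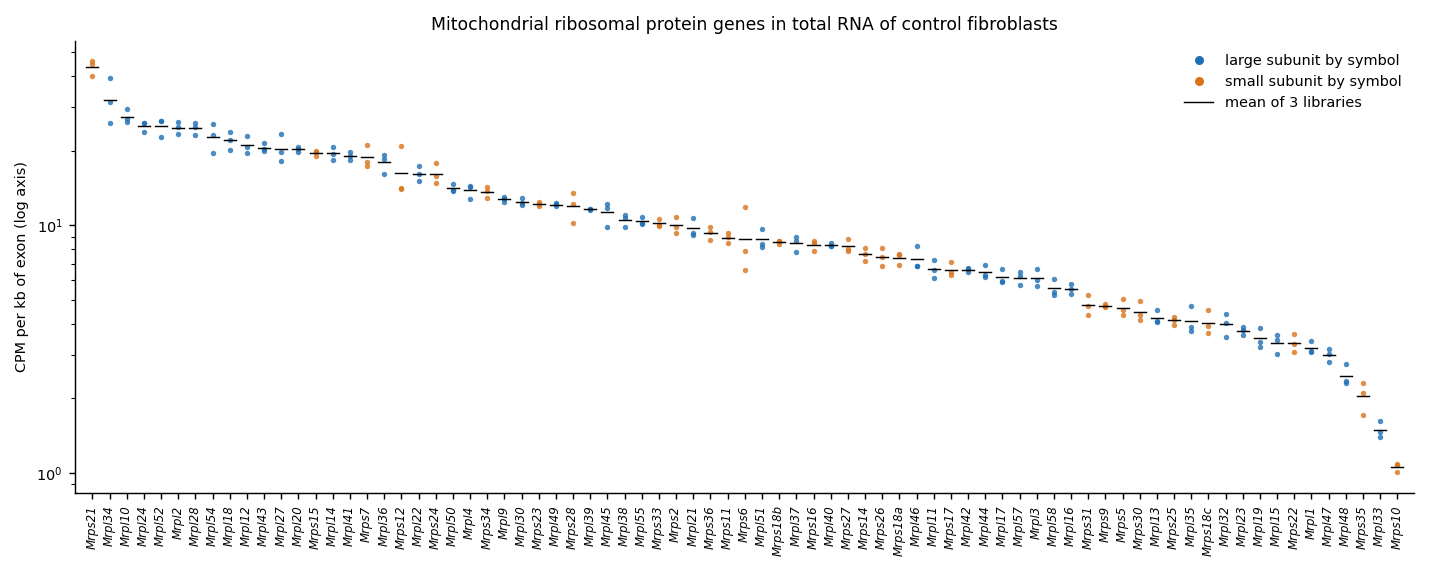
Level of each of the 77 members with reads in total RNA of control fibroblasts, in CPM per kilobase of exon on a log axis. Points are the 3 libraries, bars their mean and colours the subunit by symbol. Levels descend without a break from Mrps21 at 43.5 to Mrps10 at 1.06, with both subunits mixed along the order.

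Within a group the members varied little between control cultures. The median coefficient of variation over members was 6.45% in control total RNA, 9.15% in control ribosome-associated RNA and 5.94% in ribosome-associated RNA of HTT-deleted cells. In total RNA of HTT-deleted cells it was 33.8%. That spread came with 1 library: total RNA of HTT-deleted replicate 1 had a summed member level of 3308 CPM, and the 5 other total RNA libraries lay between 1799 and 1969 CPM. The 6 ribosome-associated libraries lay between 2341 and 2675 CPM.

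The same library also leaned towards short genes. Each gene's log2 deviation from the mean of the other libraries of the fraction was set against its exon length. The rank correlation over 11777 protein-coding genes was -0.53 in this library and 0.19 to 0.38 in the 5 other total RNA libraries. The mean used for each of those 5 includes the leaning library, so their positive values do not show a lean of their own. Transcripts of mitochondrial DNA made up 0.854% of the counts of the leaning library and 1.37% to 1.98% of those of the 5 others. The members are short, with a median exon length of 2394 bp against 4554 bp for protein-coding genes. A second library, ribosome-associated RNA of control replicate 1, leaned the same way to a smaller extent. Its rank correlation was -0.45, and the 5 remaining libraries of ribosomes were at 0.02 to 0.15. The median deviation of the members was 0.16 in it and -0.05 to 0.02 in those 5. The means that those 5 were set against include this second library. The part of gene length in the members' level in these libraries was not tested.

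The summed large-subunit level was 1.85 to 1.89 times the small-subunit level in the 3 control total RNA libraries and 1.98 to 1.99 times in the 3 control ribosome-associated libraries, without overlap. In HTT-deleted cells the ratio was 1.99 in total RNA replicate 1, 1.85 and 1.86 in replicates 2 and 3, and 1.96 to 2.04 in ribosome-associated RNA.

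Ribosome-associated RNA was first compared with total RNA in control cells, in fits that did not pair the fractions of each culture. Of the members, 40 of 77 were called higher, at an adjusted p under 0.05, and 0 lower in edgeR's quasi-likelihood test, where 10.0% of the 14990 genes tested were called higher and 15.0% lower. The median log2 fold change was 0.38, with 74 of 77 members above 0, and 0.02 over all genes. The called members were 28 of 48 in the large subunit (median 0.42) and 12 of 29 in the small subunit (median 0.35), or 28 of 50 and 11 of 26 by structure, with Mrps36 apart. DESeq2 called 44 higher (12.7% of all genes, and 16.1% lower) and limma voom 38 (9.84% and 15.3%), and 0 lower in both. At an unadjusted p under 0.05, 56 members were higher in edgeR and 1, Mrpl37, was lower, where 17.1% and 21.1% of genes were.

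Mrpl30, a protein of the large subunit's central protuberance, rose most. It was at 38.8, 39.7 and 41.4 CPM in the control total RNA libraries and at 75.4, 63.1 and 60.9 CPM on ribosomes. All 3 ribosome-associated libraries lay far above all 3 total RNA libraries. The log2 fold change was 0.73 ± 0.10 (SE), with an adjusted p of 0.00499 in edgeR's quasi-likelihood test. Mrpl42, a large-subunit protein particular to mitochondria, was at 23.8, 24.5 and 24.7 CPM in total RNA and at 40.1, 39.1 and 38.3 CPM on ribosomes. Both groups were tight and far apart, and the log2 fold change was 0.68 ± 0.08 (SE), with an edgeR adjusted p of 0.00262.

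Mrpl20, among the earliest proteins to join the large subunit's RNA in bacteria, went from 32.9 to 34.4 CPM in total RNA to 50.4 to 56.5 CPM on ribosomes, a log2 fold change of 0.63 ± 0.09. Mrpl18, of the central protuberance as well, went from 28.2 to 33.3 CPM to 43.4 to 52.7 CPM (log2 fold change 0.63 ± 0.10). Mrpl48, also of the central protuberance, went from 18.8 to 22.4 CPM to 27.3 to 33.2 CPM (log2 fold change 0.63 ± 0.12). The groups did not overlap in any of these 3 genes, and the edgeR adjusted p were 0.00437, 0.00764 and 0.0127.

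At the other end, Mrpl33, a small protein of the large subunit, was at 10.3, 10.7 and 11.9 CPM in control total RNA and at 10.2, 7.75 and 6.34 CPM on ribosomes. Every ribosome-associated library was below every total RNA library, by a small margin in replicate 1. The log2 fold change was -0.45 ± 0.19 (SE), which did not pass (edgeR adjusted p 0.140) until the cultures were blocked, when it was -0.47 with an adjusted p of 0.0176. Mrpl37, also of the large subunit, was at 34.7 to 39.8 CPM in total RNA and 29.1 to 33.7 CPM on ribosomes, a log2 fold change of -0.26 ± 0.10 (edgeR adjusted p 0.0898, and 0.0206 with the block).

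The annotated Mrpl33 gene has an exon length of 7326 bp over 13 exons (chr5:31596935-31664384, GRCm38, plus strand), against 2741 bp for its longest transcript. Reads from several transcripts are thus summed in its count. The next lowest members were near 0 and did not pass: Mrps5 at -0.02 ± 0.09, Mrpl4 at 0.02 ± 0.11 and Mrps27 at 0.12 ± 0.10. The signs of these 3 changed with the length trend removed, and that of Mrps5 with upper-quartile scaling too.

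**Figure D2:**
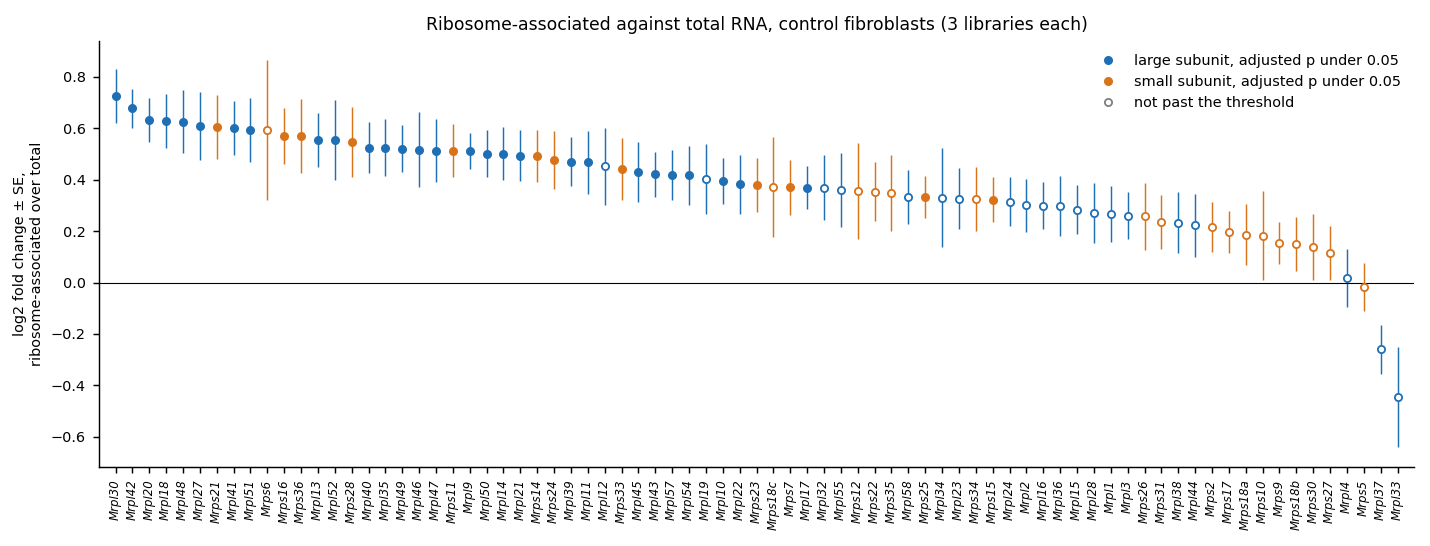
Log2 fold change of ribosome-associated over total RNA in control fibroblasts for the 77 tested members in descending order, with SE bars from edgeR. Filled points passed an adjusted p of 0.05, open points did not, and colours give the subunit by symbol. The 40 filled points lie between Mrpl30 at 0.73 and Mrps15 at 0.32, and Mrpl37 and Mrpl33 are the clear points below 0.

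Members with known roles were found on both sides of the threshold. Mrps7, an assembly-nucleating protein of the small subunit's head, was called higher, at 36.0 to 43.5 CPM in total RNA and 47.3 to 55.7 CPM on ribosomes (log2 fold change 0.37 ± 0.11, edgeR adjusted p 0.0452). Mrps36, the dehydrogenase subunit, was called higher too, at 11.1 to 12.5 CPM and 15.0 to 20.5 CPM (0.57 ± 0.14, adjusted p 0.0282). Mrpl12, which forms the stalk that recruits translation factors, did not pass at 0.45 ± 0.15 (adjusted p 0.0652). Mrpl58, a peptidyl-tRNA hydrolase built into the large subunit, was at 0.33 ± 0.11 (adjusted p 0.0576), Mrps34 at 0.32 ± 0.12 (0.102) and Mrps12, a protein of the decoding centre, at 0.36 ± 0.19 (0.209). With the cultures blocked, Mrpl12, Mrpl58, Mrps34 and Mrps12 passed, with adjusted p of 0.00155, 0.0120, 0.00743 and 0.0111.

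Mrpl44, a member of the ribonuclease III fold family, was at 0.22 ± 0.12 and did not pass in either fit (edgeR adjusted p 0.231, blocked 0.120). Of the 3 Mrps18 paralogues, which occupy different places in the ribosome, none passed in either fit. Mrps18a, placed in the large subunit, was at 0.19 ± 0.12, Mrps18b at 0.15 ± 0.10 and Mrps18c at 0.37 ± 0.19. In total RNA of control cells they stood at 25.5 to 28.3, 17.5 to 18.1 and 3.93 to 4.91 CPM. Mrps30, placed in the large subunit as well, was at 0.14 ± 0.13 and did not pass.

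The 3 control cultures gave medians of the same direction. The median of the members' log2 differences, ribosome-associated minus total, was 0.58 in culture 1, 0.38 in culture 2 and 0.29 in culture 3, with 75, 71 and 71 of 77 members above 0. Culture 1 holds the ribosome-associated library that leans towards short genes, and without that library the median log2 fold change was 0.34, with 73 of 77 above 0. In 65 members the 3 ribosome-associated libraries all lay above the 3 total RNA libraries, a pattern seen in 20.6% of all genes tested, and in 2 members, Mrpl33 and Mrpl37, all lay below, as in 23.5% of all genes. With the cultures blocked, edgeR called 62 members higher and these 2 lower, where 24.3% of genes were called higher and 25.9% lower. The calls without the block depended on single libraries: 10 members were called higher without total RNA control replicate 1 (2.53% of all genes), 17 without total RNA control replicate 2 (4.25%), 24 without total RNA control replicate 3 (4.62%) and 23 without ribosome-associated control replicate 1 (6.26%).

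Gene length moved with this comparison. Across 11777 protein-coding genes the log2 fold change fell with exon length (Spearman's rho -0.59), and across the 77 members less so (rho -0.34). These are correlations across genes of the same libraries, and genes are not independent replicates. With the length trend of each library removed, the members' median was 0.16, with 61 of 77 above 0 and 16 called higher against 6.84% of all genes. In that fit the remaining relation to length across members was positive (rho 0.68), so short members lost more height than long ones. Mrpl30, Mrpl42 and Mrpl48 passed there, at 0.59, 0.60 and 0.86, and Mrpl20 at 0.28, while Mrpl18 at 0.23 did not.

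**Figure D3:**
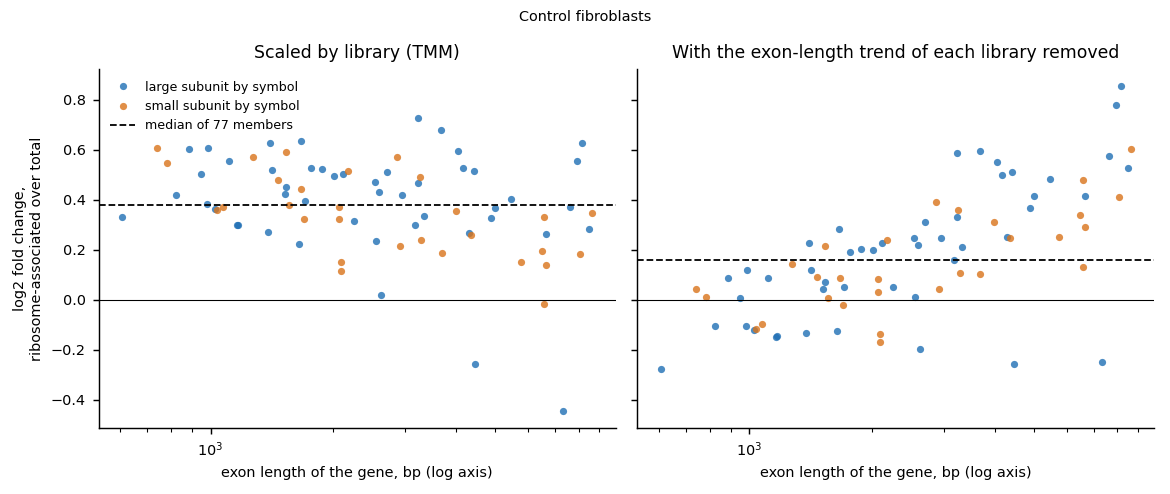
Log2 fold change of ribosome-associated over total RNA in control fibroblasts against the exon length of each of the 77 members on a log axis, before (left) and after (right) the exon-length trend of each library was removed. The dashed median falls from 0.38 to 0.16. Longer members keep or gain height on the right and shorter ones drop towards 0.

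HTT-deleted cells gave no call when all libraries were used. The median was 0.03, with 45 of 77 members above 0 and 0 called, where 0.896% of 14627 genes were called, all lower. At an unadjusted p under 0.05 edgeR had 3 members higher, Mrpl39, Mrpl42 and Mrpl48, and 1 lower, Mrpl37, where 2.76% of genes were higher and 9.44% lower. DESeq2 called 1 higher, Mrpl39, where it called 0.827% of genes higher and 5.09% lower, and limma voom called 0, where it called 0.00684% and 1.02%. The blocked fit called 0 (0.663% of genes, all lower). The cultures did not move together: the median log2 difference was -0.42 in culture 1, with 14 of 77 members above 0, and 0.44 and 0.38 in cultures 2 and 3, with 74 of 77 above 0 in each. Culture 1 is the one whose total RNA library stands apart.

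Without total RNA of HTT-deleted replicate 1 the members' median was 0.42, with 74 of 77 above 0, and 37 were called higher and 0 lower in edgeR, where 7.95% of genes were called higher and 11.9% lower. Cultures 2 and 3 alone, blocked, gave 66 members higher and 1 lower, with 27.7% of genes called higher and 27.9% lower. Of the 40 members called in control cells, 31 were among those 37 (77.5% of the first list and 83.8% of the second). These comparisons share no library, but the lists are not independent. Same-numbered ribosome-associated libraries of both genotypes deviated together over all genes (correlations of 0.53 to 0.70). The second list also exists only without that total RNA library, as 0 members were called with it. Across the 77 members the log2 fold changes of the control and HTT-deleted comparisons had a Spearman's rho of 0.84 without that library and 0.44 with all libraries.

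Mrpl30 was at 64.0, 35.6 and 37.3 CPM in total RNA of HTT-deleted cells and at 66.8, 65.5 and 58.9 CPM on ribosomes. In total RNA replicate 1 is far above the other 2 and reaches the ribosome-associated range. Mrpl30 had a log2 fold change of 0.47 ± 0.25 with all libraries (edgeR adjusted p 0.543) and 0.80 without that library (adjusted p 0.00869). Mrpl42 was at 36.0, 26.4 and 25.8 CPM in total RNA and at 42.5, 41.5 and 38.6 CPM on ribosomes, so its groups stayed apart (0.47 ± 0.18, edgeR adjusted p 0.341, and 0.64 with an adjusted p of 0.0117 without that library). Mrpl48, Mrpl39 and Mrpl47, all of the large subunit, were at 0.48 ± 0.20, 0.48 ± 0.14 and 0.38 ± 0.18 with all libraries and did not pass. Without that library they passed at 0.68, 0.52 and 0.52 (edgeR adjusted p 0.0203, 0.0198 and 0.0377). The 37 members called there were 28 of 48 in the large subunit and 9 of 29 in the small subunit.

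Mrpl33 was again lowest, at 21.1, 9.88 and 8.67 CPM in total RNA and 6.65, 9.59 and 6.78 CPM on ribosomes. Its log2 fold change was -0.79 ± 0.38 with all libraries and -0.28 without replicate 1 of the total RNA, and it passed in neither (edgeR adjusted p 0.490 and 0.433). Mrpl37 was at -0.45 ± 0.19 and -0.27, and did not pass either. Mrps18c, at -0.73 ± 0.58 with all libraries, was at 0.30 without that library, so its direction rests on it. The same held for Mrpl28, at -0.47 and 0.28, and for Mrps26, at -0.39 and 0.16.

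**Figure D4:**
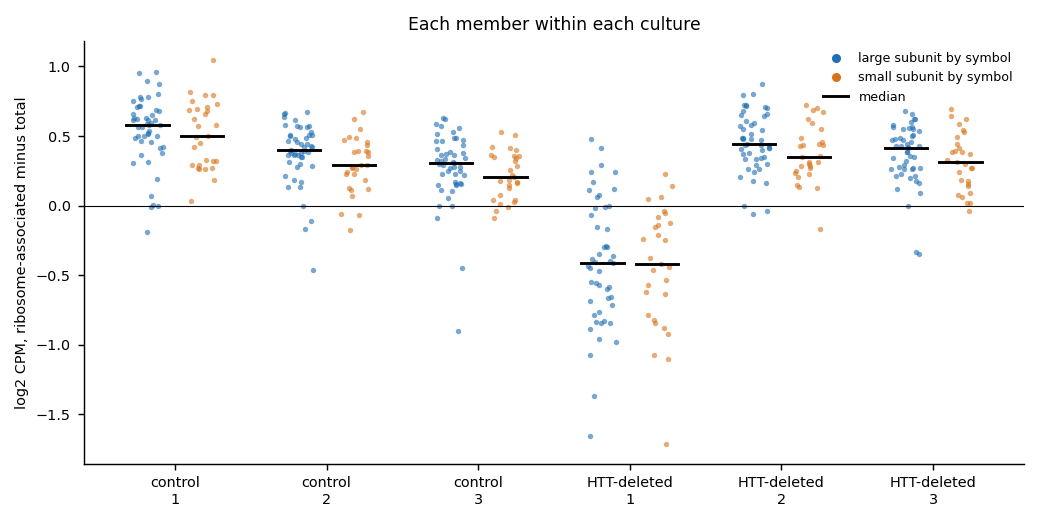
Difference in log2 CPM between ribosome-associated and total RNA for each of the 78 members within each of the 6 cultures, by subunit. Mrpl53, which had no reads, is drawn at 0 and enters the large-subunit bars. Black bars are the medians of each subunit. Over the 77 tested members of both subunits the medians lie between 0.29 and 0.58 in 5 cultures and at -0.42 in HTT-deleted culture 1.

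The effect of HTT deletion was then compared within each fraction. In total RNA 76 of 77 members were higher in the mean of HTT-deleted cells, with a median log2 fold change of 0.32 (0.34 in the large and 0.31 in the small subunit), but 0 were called by edgeR, DESeq2, limma voom or the blocked fit (DESeq2 called 0.0203% of all genes, all lower). The background was 0.0% in edgeR, and 0 members and 44 of 14759 genes had an unadjusted p under 0.05. Without total RNA of HTT-deleted replicate 1 the median was -0.01 and 33 of 77 members were above 0. The median difference per pair was 0.75 in pair 1, 0.01 in pair 2 and -0.06 in pair 3.

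Mrps18c shows the pattern in its largest form. It had 68 to 298 reads per library and shares 23.2% of its exon length on the same strand with the gene Gm43511, so its count is less certain. Mrps18c was at 3.93, 4.21 and 4.91 CPM in control total RNA and at 16.5, 4.37 and 3.62 CPM in HTT-deleted total RNA. Only replicate 1 was high, and replicates 2 and 3 lay within or below the controls. The log2 fold change was 0.96 ± 0.61 (edgeR adjusted p 0.978) and -0.11 without replicate 1. Mrpl28, a large-subunit protein, was at 34.3, 32.0 and 35.7 CPM in controls and 98.9, 30.0 and 35.3 CPM in HTT-deleted cells (0.74 ± 0.47, and -0.05 without replicate 1). Mrps24 (0.67 ± 0.45) and Mrpl14 (0.65 ± 0.42) had the same shape, at -0.06 and -0.01 without replicate 1.

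At the low end, Mrps31 was at 14.3, 15.6 and 17.1 CPM in controls and 17.3, 13.7 and 13.9 CPM in HTT-deleted cells, a log2 fold change of -0.03 ± 0.18. Mrpl4 (0.06 ± 0.20), Mrpl39 (0.07 ± 0.13) and Mrps2 (0.08 ± 0.13) were near 0 as well. The HTT-deleted libraries lay wholly above the controls in 6 members, Mrpl20, Mrpl23, Mrpl42, Mrps15, Mrps18b and Mrps9, where 1.61% of all genes did so. Mrps18b, for example, was at 18.1, 17.96 and 17.5 CPM in controls and at 20.95, 18.6 and 19.7 CPM in HTT-deleted cells, a log2 fold change of 0.18 ± 0.15 that was not called.

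The authors' deposited table held 77 members. Its name gives RUVSeq, a correction for unwanted variation, beside edgeR, and its scores are likelihood ratios. The fits here were quasi-likelihood tests without RUVSeq, so its values and calls come from an unlike model. In the authors' deposited table, 6 members had a false discovery rate under 0.05 in total RNA, all higher in HTT-deleted cells, where 2.29% of its 16974 genes were higher at that rate. They were Mrps18c (log2 fold change 0.59), Mrpl28 (0.51), Mrpl11 (0.49), Mrpl14 (0.47), Mrps21 (0.45) and Mrpl51 (0.44) in the authors' deposited table. Mrps18c had the largest change there too, at a false discovery rate of 0.0496, and the median of the 77 was 0.28 in the authors' deposited table. Of these 6, the raw counts put replicate 1 far above the other HTT-deleted libraries in Mrps18c, Mrpl28, Mrpl14, Mrpl51 (76.7, 33.6 and 40.0 CPM), Mrpl11 (53.2, 23.2 and 20.9 CPM) and Mrps21 (84.2, 29.6 and 31.7 CPM).

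In ribosome-associated RNA no member was called with HTT deletion. The median log2 fold change was -0.02, with 33 of 77 above 0 and 0 called by edgeR, where 0.0% of all 14588 genes were called. DESeq2 (0.00685% of all genes, all lower) and limma voom called 0 members, and 0 had an unadjusted p under 0.05 in edgeR. The blocked fit called 1.46% of all genes higher, 0.233% lower and 0 members. The authors' deposited table has a median of -0.02 and 0 members under a false discovery rate of 0.05 in this fraction, with 3.12% of its genes higher. The medians per pair were -0.15, 0.05 and 0.02.

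The extremes were small. Mrps33 was the highest at 0.12 ± 0.12, followed by Mrpl11 at 0.12 ± 0.13, Mrpl50 at 0.11 ± 0.09 and Mrpl46 at 0.10 ± 0.13. Mrps6 was the lowest at -0.36 ± 0.22, with 25.1, 14.9 and 21.2 CPM in controls and 14.04, 14.3 and 19.1 CPM in HTT-deleted cells. The groups overlap, and replicate 1 of the controls is the highest. Mrps6 shares exons on the same strand with Slc5a3, an inositol transporter, so its count is less certain. Mrps18c at -0.20 ± 0.18, Mrpl52 at -0.18 ± 0.16 and Mrps26 at -0.17 ± 0.13 followed.

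**Figure D5:**
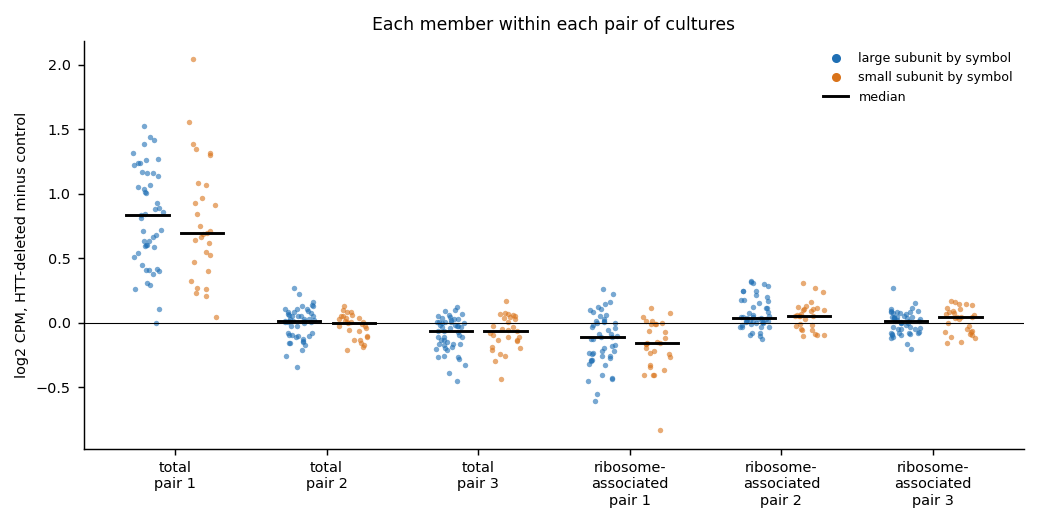
Difference in log2 CPM between HTT-deleted and control cells for each of the 78 members within each of the 3 pairs of cultures, by subunit. Total RNA is on the left and ribosome-associated RNA on the right. Mrpl53, which had no reads, is drawn at 0 and enters the large-subunit bars. Black bars are the medians of each subunit. Over the 77 tested members of both subunits only pair 1 of total RNA, with a median of 0.75, departs far from 0. The 5 other medians lie between -0.15 and 0.05.

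The effect of HTT deletion on the contrast between the fractions was tested as an interaction over all 12 libraries. The median was -0.29, with 3 of 77 members above 0 and 0 called, where 0.0% of 15574 genes were called. DESeq2, limma voom and the blocked fit called 0, and 0 members had an unadjusted p under 0.05 in edgeR. Mrps18c was lowest at -1.11 ± 0.66, then Mrps6 at -0.79 ± 0.55, Mrpl52 at -0.76 ± 0.55 and Mrpl28 at -0.74 ± 0.50. Mrps31 was highest at 0.12 ± 0.18, with Mrps22 at 0.02 ± 0.18, Mrpl39 at 0.01 ± 0.14 and Mrpl32 at -0.02 ± 0.20. Without total RNA of HTT-deleted replicate 1 the median was 0.01, and 42 of 77 members were above 0. Mrps18c was then at -0.07, Mrps6 at -0.19, Mrpl52 at 0.08 and Mrpl28 at 0.02. Mrps31 was then at 0.25, Mrps22 at 0.12, Mrpl39 at 0.06 and Mrpl32 at 0.07.

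Macrophage markers were higher in the mean of HTT-deleted cells, 16 of 16 above 0 in both fractions with median log2 fold changes of 0.97 and 0.74, and 0 called by edgeR, with 0 at an unadjusted p under 0.05. In bulk RNA fewer cells of a type and less RNA per cell cannot be told apart. The part of these cells in the members' levels was not tested.

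Genes that work with the mitochondrial ribosome were compared on the same scale, as counts and medians with no test of a list. Among all genes 10.0% were called higher on ribosomes of control cells and 15.0% lower. With the cultures blocked the shares were 24.3% and 25.9%, and with the length trend removed 6.84% and 11.2%. The counts of each list below stand beside these shares. On ribosomes of control cells, 72 of the 76 cytosolic ribosomal proteins were called higher, at a median of 0.79, and 1, Rps10, was called lower. The median over 78 nuclear respiratory chain genes was 0.53, with 58 called higher and 0 lower. The members' median was 0.38. With the length trend removed, the median was 0.49 for the cytosolic ribosomal proteins (62 called higher, 2 lower), 0.16 for the respiratory chain genes (18 higher, 0 lower) and 0.16 for the members (16 higher). With the cultures blocked, 74 cytosolic ribosomal proteins were called higher and 2, Rps10 and Rpl24, lower, and 67 respiratory chain genes higher and 2, Ndufb2 and Ndufs1, lower.

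Mitochondrial ribosomal proteins without an Mrp symbol were called higher in 3 of 5 cases and lower in 0, with a median of 0.45. Aurkaip1 was at 0.58 ± 0.10, Chchd1 at 0.56 and Gadd45gip1 at 0.45, while Dap3 at 0.14 and Ptcd3 at -0.24 did not pass (edgeR adjusted p 0.405 and 0.153). With the cultures blocked Ptcd3 was called lower at -0.24 (edgeR adjusted p 0.0210), and with the length trend removed 0 of the 5 were called, at a median of 0.22. Of 27 assembly genes 1 was called higher and 4 lower (median 0.06), the lower calls near the share of all genes (15.0%). Mettl17, an assembly factor of the small subunit, fell most, at -1.37 ± 0.09 (edgeR adjusted p 0.000683). The block raised the assembly genes called higher to 7, near the share of all genes (24.3%), with 4 lower. The length correction left 0 and 2 (median -0.03). Of 15 translation factors and cofactors 3 were called higher and 5 lower (median 0.14), which became 5 and 5 with the block and 2 and 4 (median -0.14) with the length trend removed. Guf1, a translocase-like elongation factor, was called lower at -1.21 ± 0.12, and Slirp, an RNA-stabilising protein, rose by 0.60 ± 0.13.

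The mitochondrial aminoacyl-tRNA synthetases, which charge the tRNAs used by this ribosome, had 0 of 17 called higher and 5 lower (median -0.15), with Cars2 lowest at -0.96 ± 0.12. At an unadjusted edgeR p under 0.05 there were 7 of 17 over both directions, where 5733 of all 14990 genes were (17.1% higher and 21.1% lower). That count does not separate the directions. The 5 adjusted calls were all lower, where 15.0% of all genes were called lower. With the block 7 were called lower, and with the length trend removed 4. Of 16 genes that copy and process mitochondrial DNA and its RNA, 1 was called higher and 3 lower (median -0.07), against 2 and 5 with the block and 0 and 4 (median -0.27) with the length trend removed. Hsd17b10, a subunit of mitochondrial ribonuclease P, was at 0.62 ± 0.10 and Polg, the mitochondrial DNA polymerase, at -0.90 ± 0.08. Of the mitochondrial ribosome's own RNAs, mt-Rnr1, the 12S RNA, was called lower on the cytosolic ribosome pellet at -0.54 ± 0.10. The other, mt-Rnr2, the 16S RNA, was not called, at 0.21 ± 0.14 (edgeR adjusted p 0.325). It was at 0.20 with the cultures blocked (edgeR adjusted p 0.0508) and at -0.16 with the length trend removed. Among the 13 tested transcripts of mitochondrial DNA 0 were called higher, at a median of 0.36. With the cultures blocked 5 were called higher, mt-Co1, mt-Co3, mt-Nd4, mt-Nd6 and mt-Cytb, at 0.36 to 0.66, and mt-Rnr1 stayed lower. With the length trend removed mt-Rnr1 alone was called, and the median was -0.16. In the HTT comparisons 0 members of any of these lists were called by edgeR.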

How the data were processed

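RNA-seq was made from 12 libraries of mouse embryonic fibroblasts, in 4 groups of 3. Per the submitters' processing notes, FastQC, STAR 2.7.2b, HTSeq 0.11.1 and edgeR were used with GRCm38 (mm10). Neither the annotation release nor the strand setting of the counting is stated there or in the labels. The deposited count files hold whole-number counts per gene. The authors' deposited table gives log2 fold changes, log2 CPM, likelihood-ratio scores, p-values and false discovery rates for HTT-deleted against control cells. Its name gives RUVSeq beside edgeR, a correction that the fits here did not use. Symbols, coordinates and exon lengths came from GENCODE M21 (GRCm38), and promoters from RefSeq (GRCm38.p6), which matched 69 of 78 members. No protein sequences were used here.

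Counts were fitted with edgeR 4.0.16 (quasi-likelihood, TMM scaling, filterByExpr, Benjamini-Hochberg adjustment over all genes, threshold 0.05) in R 4.3.3, separately for the groups of each comparison and over all 12 libraries for the interaction. DESeq2 1.42.0, limma 3.58.1 voom, other scalings, no filter, a replicate block, a length correction (lowess span 0.3 of log2 deviation on exon length) and leaving out each library were alternatives. The scripts were tested on simulated data that held no outlying library and no lean towards short genes. For the interaction, the share of changed genes to be recovered was lowered after a first run fell short of it. The simulation therefore does not measure the power behind comparisons in which no member was called. Same-numbered libraries deviated together (correlations of 0.227 to 0.737 over all groups paired). The numbers were therefore read as pairing the cultures, and the blocked value is given where it changes a call. Both fractions of a culture come from the same suspension, a pairing that the main fits of fractions did not use. Between control and HTT-deleted cultures the pairing rests on these correlations alone. Any 2 replicates of a group differed by more than counting noise (chi-square per degree of freedom of 35.1 to 178). All columns of samples were used. The floor of 3 reads covers counting error only, whereas each SD and SE includes the spread between libraries.

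Members, lists and motifs were chosen with earlier results of these data known. Genes are named by rule: the 4 highest and 4 lowest fold changes in each HTT comparison, the 5 highest and 5 lowest in each comparison of fractions, the 4 highest and 4 lowest levels per kilobase, 11 members of known role, and the extremes of each list. Other named genes were chosen after their values were seen.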

Additional observations from a re-analysis of the deposited data

How the results depend on the processing

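The replicate block, with same-numbered cultures paired, changed the control comparison of fractions to 62 members called higher and 2 lower (24.3% and 25.9% of all genes). It called 0 members in the HTT comparisons. Leaving out each library in turn gave 10 to 32 members called higher in control cells, where 2.53% to 7.74% of all genes were, and 0 to 37 in HTT-deleted cells, where 0.0% to 7.95% were. In the same runs the HTT effect in total RNA ranged from -0.17 to 0.036 for Mrps31, -0.15 to 0.17 for Mrpl4, -0.014 to 0.91 for Mrpl14, -0.059 to 0.95 for Mrps24, -0.050 to 1.03 for Mrpl28 and -0.11 to 1.33 for Mrps18c. The interaction ranged from -1.49 to -0.067 for Mrps18c, -1.12 to -0.19 for Mrps6, -1.06 to 0.079 for Mrpl52, -1.03 to 0.018 for Mrpl28, -0.12 to 0.083 for Mrpl32, -0.041 to 0.085 for Mrpl39 and -0.053 to 0.12 for Mrps22. The comparison of fractions ranged from -0.068 to 0.051 for Mrps5 and -0.070 to 0.082 for Mrpl4 in control cells, and from -1.10 to 0.30 for Mrps18c, -0.76 to 0.28 for Mrpl28 and -0.61 to 0.16 for Mrps26 in HTT-deleted cells. The large-subunit median minus the small-subunit median ranged from -0.024 to 0.052 for the HTT effect on ribosomes, -0.074 to 0.041 for the interaction, 0.053 to 0.14 for the fractions of control cells and -0.021 to 0.16 for those of HTT-deleted cells.

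Without replicate 1 of every group and with the replicate block, the HTT effect in total RNA was -0.21 for Mrpl4, -0.058 for Mrpl14, -0.13 for Mrps24, -0.048 for Mrpl28 and -0.19 for Mrps18c. The interaction was 0.11 for Mrps18c, 0.12 for Mrps6, 0.18 for Mrpl52, 0.12 for Mrpl28 and 0.10 for Mrpl32. For the fractions of control cells 2 members were called lower, where 25.0% of all genes were called lower and 24.1% higher. The large-minus-small difference was 0.12 and Mrpl4 was at -0.13. For the fractions of HTT-deleted cells 66 members were called higher and 1 lower (27.7% and 27.9% of all genes). The large-minus-small difference was 0.090, and the values were 0.29 for Mrps18c, 0.30 for Mrpl28 and 0.15 for Mrps26.

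With the length trend removed, the HTT effect in total RNA was -0.045 for Mrpl4 and -0.027 for Mrpl39, and the interaction's large-minus-small difference was 0.036. In control cells 16 members were called higher (6.84% of all genes). The median was 0.16, the large-minus-small difference was 0.093, and the values were 0.13 for Mrps5, -0.20 for Mrpl4 and -0.17 for Mrps27. With the replicate block added to it, 33 members were called higher and 3, Mrpl4, Mrpl34 and Mrpl37, lower (20.6% and 23.2% of all genes), the median was 0.16, the large-minus-small difference was 0.096 and the values were 0.13 for Mrps5, -0.20 for Mrpl4 and -0.17 for Mrps27, while the HTT effect in total RNA was -0.049 for Mrpl4 and -0.029 for Mrpl39. Upper-quartile scaling put the interaction at -0.021 for Mrpl39 and -0.016 for Mrps22 and control Mrps5 at 0.022. With no filter on low counts control Mrps5 was at 0.0023. DESeq2 called 1 member higher on ribosomes of HTT-deleted cells (0.827% of all genes). The median level per kilobase was 12.03 with the longest transcript as length. The cause of these changes was not tested. The protein features that had been planned were not run. Member reads numbered 32954 to 72482 per library.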
